A study of Mus musculus with 8 samples.

Results

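Sox2BiD is the transcription factor Sox2 with a BRG1-interacting domain, taken from the BAF subunit SS18, placed at its N-terminus through a short flexible linker. The regions described here carried a CUT&Tag peak of Flag-tagged Sox2BiD and of no other library of the series. They were chosen by a rule on the peak lists: peaks of all 8 libraries were merged wherever they shared at least 1 bp, and a merged region was kept when only Sox2BiD had a peak in it and that peak had a score of at least 100. The score is 10 times the negative log10 of the p-value that the peak caller gave. The rule kept 19330 of 306466 merged regions (6.31%), and every one of them held a single Sox2BiD peak. Because the rule fixed the absence of other peaks, that absence and the scores are descriptions and not findings.

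The 8 libraries were Nanog, Oct4, Sox2 and Nr5a2, each native and each fused to BiD, profiled with anti-Flag antibody in mouse embryonic fibroblasts (MEF) at day 3 of reprogramming. The study's methods describe fibroblasts that carry an Oct4 reporter (OG2), from embryos, transduced with retroviral pMXs vectors and kept in the chemically defined medium iCD3. All groups share this host and vector, and the sample titles give only the profiled factor, so other factors delivered together with it are not known from them. There was 1 library per factor and no untreated library among the samples used here. The study's methods speak of merged replicates while its reporting summary states that CUT&Tag was performed once, so whether a peak list rests on several preparations is not settled. Either way, differences between libraries have no replicate check, and no p-values are given: every interval below is a 95% interval that covers counting error over regions only. The study lists more read pairs for native Sox2 than for Sox2BiD, and the depth of either library cannot be read from the peak lists.

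Sox2 belongs to the HMG-box family, whose members bend DNA through the minor groove at short sites related to ACAAT and ACAAAG. It maintains pluripotent cells together with Oct4, with which it can bind a joint element, and it also acts in neural and foregut progenitors. BRG1 is the ATPase of the BAF (SWI/SNF) complex, which moves nucleosomes and opens chromatin at enhancers. AP-1 and TEAD factors bind many enhancers of fibroblasts.

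The sequences under the summits, that is the positions of highest coverage, of the strongest of these regions show what most of the results below rest on. The first 8 are the highest-scoring regions with a SOX match within 50 bp of the summit. Each runs from 50 bp before to 50 bp after the summit along the plus strand of mm10 (GRCm38), and capitals mark SOX matches, defined as CATTGTT or CTTTGTT on either strand. The name is the protein-coding gene with the nearest transcription start.
Amz1, chr5:140753368-140753468, plus strand: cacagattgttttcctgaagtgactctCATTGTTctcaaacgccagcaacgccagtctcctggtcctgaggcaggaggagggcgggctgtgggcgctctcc
Cdh5, chr8:103583226-103583326, plus strand: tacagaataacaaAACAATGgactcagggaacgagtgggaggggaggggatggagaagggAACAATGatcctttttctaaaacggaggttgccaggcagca
Lin52, chr12:84463130-84463230, plus strand: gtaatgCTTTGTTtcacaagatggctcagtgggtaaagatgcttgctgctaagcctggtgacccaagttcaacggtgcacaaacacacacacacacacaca
Cfap61, chr2:146083512-146083612, plus strand: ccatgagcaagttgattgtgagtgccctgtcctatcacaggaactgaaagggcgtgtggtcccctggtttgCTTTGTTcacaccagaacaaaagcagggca
Ttll7, chr3:147532282-147532382, plus strand: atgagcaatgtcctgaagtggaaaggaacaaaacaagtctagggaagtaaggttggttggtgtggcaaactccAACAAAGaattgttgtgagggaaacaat
Srgap3, chr6:112733618-112733718, plus strand: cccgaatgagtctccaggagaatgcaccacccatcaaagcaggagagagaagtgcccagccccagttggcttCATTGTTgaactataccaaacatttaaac
Pik3r1, chr13:101619067-101619167, plus strand: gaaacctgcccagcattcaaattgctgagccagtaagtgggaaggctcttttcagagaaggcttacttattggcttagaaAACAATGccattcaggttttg
Clec2e, chr6:129081384-129081484, plus strand: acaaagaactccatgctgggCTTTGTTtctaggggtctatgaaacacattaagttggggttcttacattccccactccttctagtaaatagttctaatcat

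The window near Cdh5 held 2 SOX matches on the same strand, and each of the other 7 held 1. The match closest to the summit lay 13 bp from it near Cdh5 and, at the far end, 41 bp upstream of it near Lin52. These sites lay in an exon of Amz1, which encodes a metallopeptidase, in introns of Lin52, Cfap61 and Srgap3, and outside genes near Cdh5, Ttll7, Pik3r1 and Clec2e. The window in Lin52 ends in a run of CA repeats.

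The 4 highest-scoring regions without such a match are shown next. Here capitals mark a wider set of words on either strand, chosen after the values were seen. It holds the short word CATTGT, its variant with another second base CTTTGT, and the altered words CTATTGT as well as the form CTTTTGT.
Pcsk5, chr19:18102190-18102290, plus strand: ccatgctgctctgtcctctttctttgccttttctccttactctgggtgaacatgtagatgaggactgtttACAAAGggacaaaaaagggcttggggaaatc
Gab2, chr7:97172737-97172837, plus strand: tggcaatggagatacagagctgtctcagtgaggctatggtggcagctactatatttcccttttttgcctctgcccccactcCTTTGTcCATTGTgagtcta
Asxl2, chr12:3518996-3519096, plus strand: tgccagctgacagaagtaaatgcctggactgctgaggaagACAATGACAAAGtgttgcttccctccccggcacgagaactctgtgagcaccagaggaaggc
Foxk1, chr5:142130169-142130269, plus strand: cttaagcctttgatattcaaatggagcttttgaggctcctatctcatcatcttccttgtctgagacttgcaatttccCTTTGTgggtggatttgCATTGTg
All 4 windows held CATTGT or CTTTGT on either strand, and neither altered word occurred in them. Since the wider set was chosen after the values were seen, this is a description. The region named for Foxk1 lay inside an intron of Sdk1, which encodes an adhesion protein of synapses.

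The values that selected the regions were these. Their Sox2BiD score ran from 100 to 899.39 with a median of 163.93, with quartiles of 124.97 and 233.6, so most of them sat in the lower part of the range. The number of tags piled up at the summit ran from 9 to 90 with a median of 22, and the peaks were 785 bp wide at the median. The 20 regions just inside the threshold scored 100 to 100.03 with a median summit of 16 tags. The 20 just outside it, also of Sox2BiD alone, scored 99.85 to 99.99 with a median summit of 16.5 tags, so nothing separated the neighbours on either side. Strong regions in which both Sox2 libraries and no other had a peak numbered 17221 and were stronger, with a median Sox2BiD score of 287.86 and a median summit of 31 tags.

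The strongest region of all, near Pcsk5, a proprotein convertase, had a score of 899.39 and 49 tags at its summit. It spanned chr19:18101209-18102480 and lay between genes, 264608 bp from the start of Pcsk5. The highest summit among the 10 strongest, 90 tags, belonged to the region in Amz1, with a score of 867.18 at 4135 bp from the start. The region near Cdh5, the cadherin of endothelial cells, scored 827.4 and lay 518349 bp from that gene. Regions within introns of Gab2, an adaptor of receptor tyrosine kinases, and of Lin52, a subunit of the cell-cycle DREAM complex, scored 823.76 and 799.77. The next 5 were named for Asxl2, Foxk1, Cfap61, Frmd4a and Ttll7 and scored between 772.58 and 793.25. None of the 10 lay within 2 kb of a protein-coding start. The nearest peak of any other library was 521 to 5208 bp away from these 10, and the nearest native Sox2 peak 598 to 80394 bp.

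Sox2BiD had 120594 peaks, the most of any library, and 38896 of them (32.3%) were alone in their region. Of these, 49.7% reached the score of 100. Oct4BiD had fewer strong regions of its own, 16055, but they were a larger share of its peaks, 17.1% against 16.03% for Sox2BiD. Native Sox2 had 1813 strong regions of its own from 58162 peaks (3.12%), fewer than Sox2BiD by an order of magnitude. Native Oct4 had 2376 (4.34% of its peaks). For Nr5a2 the order was the opposite, with 9626 strong regions alone in the native library (8.91% of its peaks) and 759 with BiD (0.996%). NanogBiD had 3993 (5.27%) against 2164 for Nanog (2.95%). With 1 library each these counts also carry differences in depth between libraries, whose part was not tested.

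The SOX motif was the leading feature of these sequences. It was present within 50 bp of 5727 of 19329 summits on placed chromosomes (29.6%, interval 28.99 to 30.28%). In windows of the same length 500 bp to either side, the mean share was 5.02%, so the share at summits was 5.90 times that of the flanks (5.61 to 6.22). The word CTTTGTT occurred in 17.5% of the windows and CATTGTT in 13.5%. The longer word CCATTGTT, with the extra C of the full consensus, was rarer at 4.97% but stood 10.4 times above the flanks. Over all Sox2BiD peaks the SOX share was 21.6%, with an enrichment of 4.803 times. This also served as the check of the label, since the sequence that Sox proteins bind was concentrated at the summits of this Sox2 library. The check cannot tell Sox2BiD from native Sox2, since both contain Sox2.

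Other strong regions held by a single library had little or none of this sequence. Native Sox2 alone had a SOX match in 8.11% of windows (6.90 to 9.47%), 1.51 times its flanks (1.22 to 1.87). In regions of Oct4BiD alone the share was 3.97%, below the flank level with an enrichment of 0.852 (0.776 to 0.934). NanogBiD alone had 4.46%, Nanog 3.70%, Oct4 2.86%, Nr5a2 3.02% and Nr5a2BiD 4.74%, none of which exceeded its flanks beyond the counting interval. The difference from Oct4BiD was 25.7 percentage points (24.95 to 26.37).

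**Figure D1:**
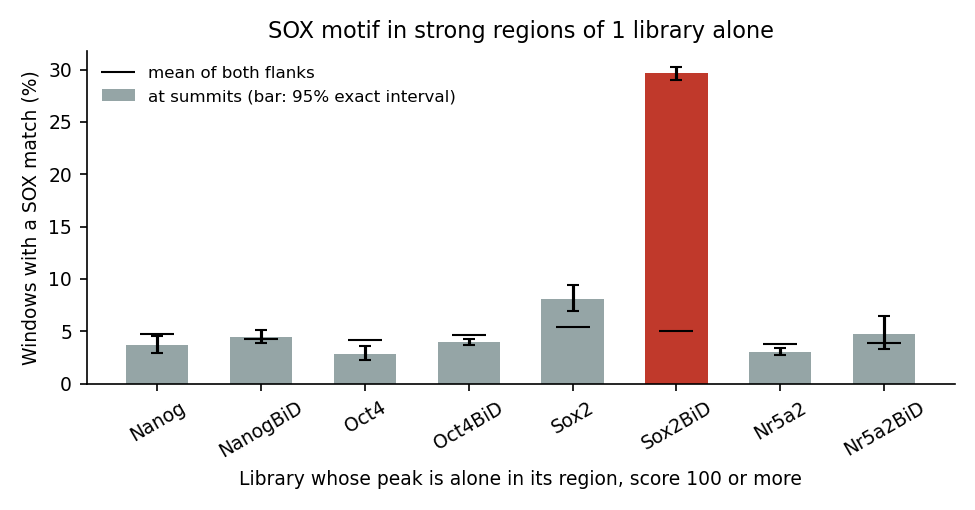
Share of windows within 50 bp of the summit that hold a SOX match (vertical axis, percent), in strong regions where only the library on the horizontal axis had a peak. Bars carry exact 95% intervals and the black marks give the mean of both flanks: Sox2BiD stood at 29.6%, native Sox2 at 8.11% and the other 6 libraries between 2.86 and 4.74%.

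Much of what the strict words missed was covered by shortened or altered forms. The wider set of words was found in 73.5% of the windows (72.9 to 74.1%) against 18.3% of flanks, a 4.01-fold enrichment. Among the 13602 windows with no strict match, 62.4% held a word of the wider set. Over all windows, the wider set was found in 68.6% for strong regions of both Sox2 libraries, 66.6% for the weaker regions of Sox2BiD alone and 15.1% for Oct4BiD alone, the last below its flanks at 17.7%. Among single words, CTTTTGT was present in 18.5% of windows at 6.53 times the flanks and CTATTGT in 9.49% at 8.50 times. The enrichment differed with the last base: CATTGTT stood at 6.85, CATTGTC at 5.02, CATTGTG at 4.33 and CATTGTA at 2.98 times the flanks. Changing the core to GATTGTT or CACTGTT left 1.75 and 1.26 times.

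All words of 8 bases were also scanned on both strands. Of 882 words present in at least 200 windows, 390 (44.2%) were at least 2-fold above the flanks, and since words overlap these are not separate signals. CTATTGTC led at 12.2 times (9.46 to 15.7), followed by AACAAAGG at 12.0, AACAATAG at 11.0, and ACAATGGA and CTTTGTTC at 10.5 each. AACAATGG, ACAATAGC, ACAATAGA and CATTGTTC stood between 10.3 and 10.4, and ACAAAAGA, the commonest of the 10 at 8.87% of windows, at 9.30. A strict SOX word was part of 4 of the 10. With the wider set, which was itself chosen after the values were seen, all 10 held one, as did 23 of the 25 most enriched words and 87 of all 390. The rest of the 390 were 6 AP-1 words, led by ATGAGTCA at 7.84 times, and 297 words outside both classes. These 297 were not free of SOX-like sequence: GAACAATA at 7.49 and AGAACAAT at 6.93 times, which led them, contain ACAAT. Since the 10 words were selected in this set, their values elsewhere are a description: CTATTGTC stood at 6.69 and AACAAAGG at 8.33 times in strong regions of both Sox2 libraries, and all 10 were below the flanks in regions of Oct4BiD alone.

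SOX matches gathered around the summit but were fewer at its centre. Their density was 4.15 matches per kb between 20 and 10 bp before the summit and 4.21 between 20 and 30 bp after it, while in the 10 bp on either side of the summit itself it was 2.64 and 2.46, and at 240 to 250 bp on either side 0.497 and 0.610. The counts behind these values were 803, 813, 510, 476, 96 and 118 matches. Regions of both Sox2 libraries had the same shape at a lower level, with 3.39 at 20 to 10 bp before the summit and 2.11 and 1.99 next to it. AP-1 matches had no such dip: in the regions of Sox2BiD alone their density was 1.05 and 0.942 per kb in the 10 bp on either side of the summit and 0.761 at 20 to 10 bp before it.

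**Figure D2:**
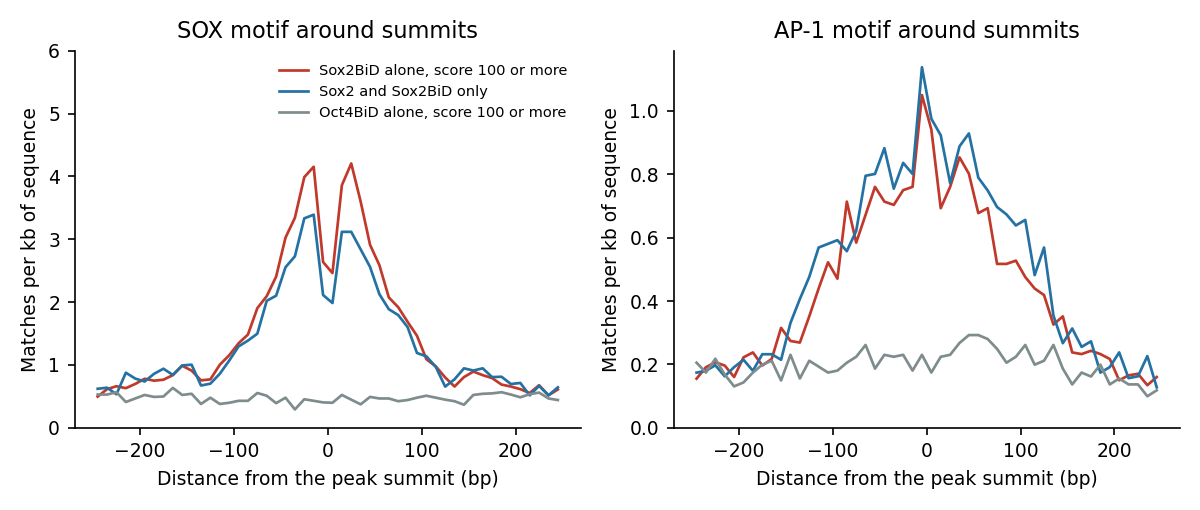
Density of SOX matches (left) and AP-1 matches (right) around peak summits, in matches per kb of sequence (vertical axes) by distance in bp from the summit in bins of 10 bp (horizontal axes). SOX matches form a pair of shoulders around a dip at the summit, reaching 4.21 per kb in strong regions of Sox2BiD alone (red) and 3.39 in those of both Sox2 libraries (blue), and stay flat for Oct4BiD alone (grey). AP-1 matches are densest at the summit in both Sox2 sets, at 1.05 and 1.14 per kb.

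Windows with several SOX matches were uncommon but well above the flanks. There were 573 windows with 2 or more (2.96%), against a mean of 19 in the flanks. Of the 540 windows with exactly 2, the matches lay on the same strand in 352 (65.2%), as in the window near Cdh5 shown above. The same-strand share was 66.4% in weaker regions of Sox2BiD alone and 59.7% in strong regions of both Sox2 libraries. The joint element of Oct4 and Sox2, a long word, was rare: 18 windows held it (0.0931%), with 8 in both flanks together, an enrichment of 4.5 times with a wide interval (1.957 to 10.35). It was 4.75 times (2.08 to 10.9) in regions of both Sox2 libraries. The octamer bound by POU factors, ATGCAAAT, was in 0.585% of windows, 0.926 times the flanks, whereas it was in 16.2% of the windows of Oct4BiD alone, 21.7 times the flanks.

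Compared with strong regions of both Sox2 libraries, the regions of Sox2BiD alone had more SOX, while AP-1 was slightly lower over the whole sets but not at every score. The SOX share was 29.6% against 23.9%, a difference of 5.73 points (4.82 to 6.63), and the log2 ratio of the 2 enrichments was 0.29 (0.18 to 0.40). AP-1, the word TGACTCA, was in 7.42% of windows against 8.23%, a difference of -0.810 points (-1.36 to -0.258). Its enrichment was 4.77 against 5.76 times, a log2 ratio of -0.27 (-0.47 to -0.07). With flanks taken 1000 bp away this ratio was -0.11 and its interval included 0. TEAD words, CATTCCA or CATTCCT, were in 6.33% against 7.86% of windows, and the RUNX word AACCACA in 3.78% against 4.36%. RUNX was 1.54 times above the flanks against 1.89 times, while the interval of the TEAD log2 ratio, -0.13 (-0.29 to 0.03), included 0. The NANOG word GCCATTA was 1.202 and 1.196 times above the flanks in the 2 sets, and the NR5A word CAAGGTCA lay below its flanks in both, at 0.550 and 0.443 times. The weaker regions of Sox2BiD alone, under a score of 100, had SOX in 25.2% and AP-1 in 7.30% of windows. Their SOX enrichment of 5.64 did not differ from that of the strong ones beyond counting error, with a log2 ratio of 0.07 (-0.04 to 0.17). The SOX share itself was higher in the strong regions, by 4.44 points (3.56 to 5.33).

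**Figure D3:**
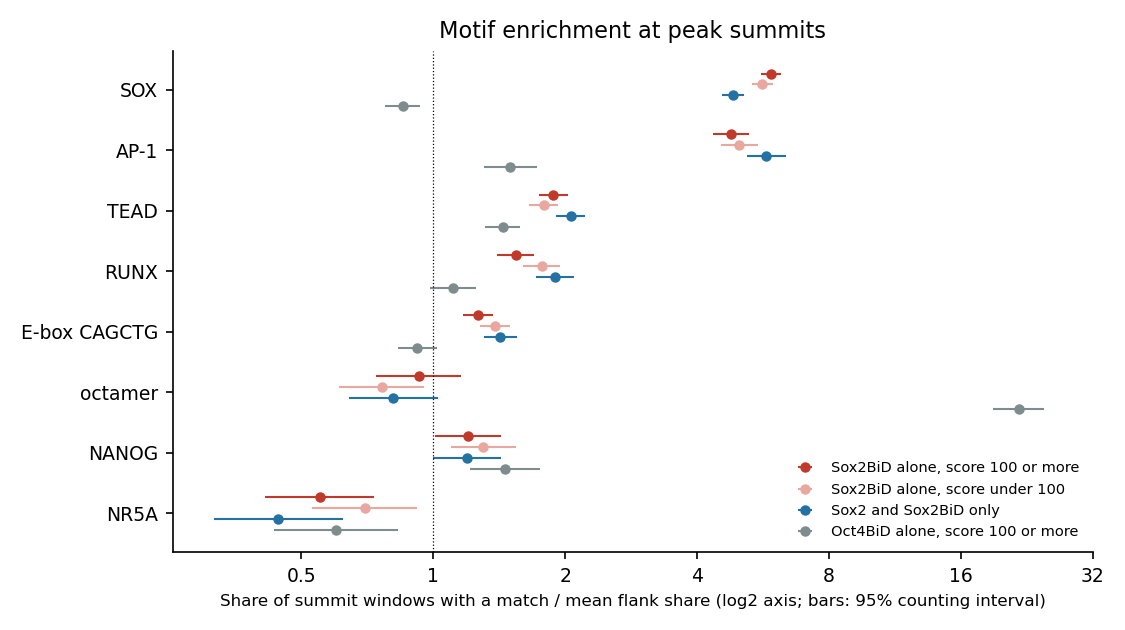
Share of summit windows with a match divided by the mean flank share, on a log2 axis, for 8 motifs and 4 sets of regions; points are enrichments, bars 95% counting intervals and the dotted line marks no enrichment. Regions of Sox2BiD alone show SOX at 5.90 and AP-1 at 4.77 times, while the octamer stands out for Oct4BiD alone at 21.7 times.

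Since the regions of both Sox2 libraries were stronger, the shares were compared at matched Sox2BiD score. Between 100 and 150 the SOX share was 27.4% for Sox2BiD alone and 17.9% for both, a difference of 9.47 points (7.72 to 11.2). Between 300 and 400 it was 34.9% against 24.9%. From 400 upwards the values were 33.0% and 28.3%, a smaller difference of 4.65 points (1.45 to 7.85). The SOX share was thus higher for Sox2BiD alone in each of the 5 ranges, and the gap at matched score was wider than in the whole sets in every range but the last. For AP-1 the difference could not be separated from 0 in 3 of the 5 ranges, with 0.612 points (-0.509 to 1.73) at 100 to 150, 0.0166 points (-1.32 to 1.36) at 150 to 200 and -1.19 points (-2.74 to 0.351) at 300 to 400. It was -2.11 points (-3.31 to -0.915) at 200 to 300 and -2.04 points (-3.76 to -0.316) at 400 or more.

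**Figure D4:**
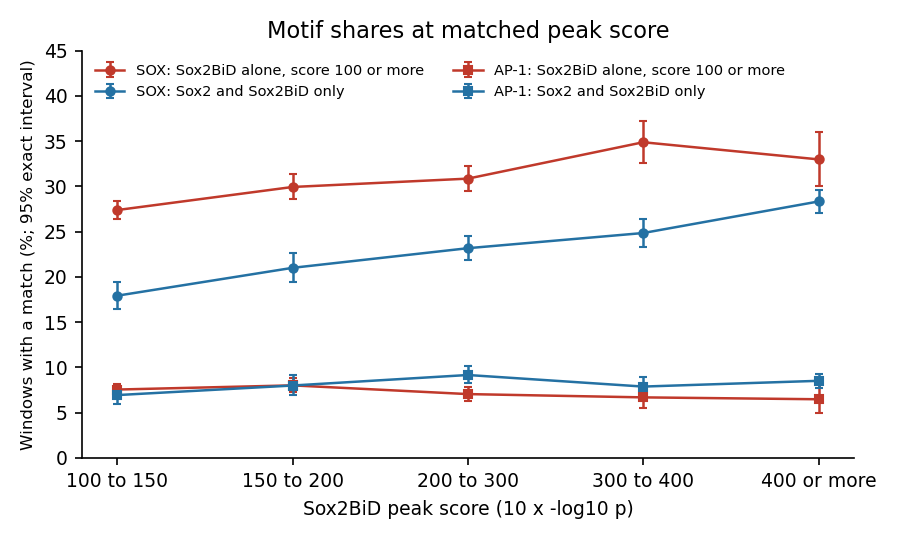
Share of windows with a SOX match (circles) or an AP-1 match (squares), in percent with exact 95% intervals, by Sox2BiD peak score, for strong regions of Sox2BiD alone (red) and of both Sox2 libraries (blue). SOX runs from 27.4 to 34.9% in red and from 17.9 to 28.3% in blue, and AP-1 stays between 6.47 and 9.16% throughout.

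SOX and AP-1 seldom fell in the same window. Both were present in 346 windows (1.79%), SOX without AP-1 in 27.8%, AP-1 without SOX in 5.63%, and neither in 64.7%. Among windows with AP-1, 24.1% held SOX (21.9 to 26.4%), below the 30.1% (29.4 to 30.7%) of windows without AP-1. In strong regions of both Sox2 libraries the corresponding values were 19.97% and 24.3%, in the same order. The regions of Sox2BiD alone that held SOX had a median score of 169.66 against 161.65 for those without, and a median summit of 23 against 21 tags. Of the 100 strongest regions, 41 held SOX and 6 held AP-1. Of the 1000 strongest, 332 held SOX and 65 held AP-1.

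The regions lay mostly away from promoters. Within 2 kb of a transcript start were 2158 of them (11.2%, 10.7 to 11.6%), in exons 2.93%, in introns 44.7% and between genes 41.2%. The promoter share was 2.60 points above that of strong regions of both Sox2 libraries, at 8.56% (difference 1.995 to 3.214), and did not differ beyond counting error from Oct4BiD alone at 10.8% or from weaker regions of Sox2BiD alone at 11.5%. Over all Sox2BiD peaks the share was 17.5%. Where only a native Sox2 peak, and no peak of the other 3 factors, could remove a region, the promoter share was 19.4% of 37201 regions. The median distance to the nearest protein-coding start was 28995 bp, against 48267 bp for regions of both Sox2 libraries. More than 100 kb from such a start lay 26.3%, against 35.8%, a difference of -9.53 points (-10.5 to -8.58). Promoter and other regions differed in SOX content by less than counting error: SOX was in 29.8% of the 2158 promoter windows and in 29.6% of the rest.

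The rule removed regions that overlap another library's peak, and most of those kept had one within 10 kb. The nearest native Sox2 peak was 12806 bp away at the median, and 4.18% lay within 1000 bp of one. The median was 12984 bp for native Oct4, which had the fewest peaks, 6758 bp for Nr5a2 and 7112.5 bp for Oct4BiD. For the nearest peak of any other library it was 2182 bp, with 15.3% within 500 bp, 27.6% within 1000 bp and 91.3% within 10 kb. Leaving out all regions with another peak within 1000 bp kept 13991, in which SOX was in 29.6% of windows. Repeats marked in the genome sequence covered 16.8% of the summits and 28.8% of the flanks, and the median GC content of the windows was 41.6%.

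The regions were spread over all chromosomes. They made up 16.03% of all Sox2BiD peaks, and between 15.0 and 16.6% on each autosome. On the X chromosome the share was 20.5% (19.2 to 21.8%), 769 of 3759 peaks, against 15.9% over the autosomes. Per Mb of chromosome, X held 4.70 of these regions, fewer than any autosome, where the values ran from 6.44 to 9.27. A higher share on X was also found for strong regions of Oct4BiD alone, 22.8% against 16.9%, and of native Sox2 alone, 4.71% against 3.07%. For native Oct4 alone it was lower on X, 3.47% against 4.35%, with intervals that overlap. The intervals also overlapped for Nanog (3.67% against 2.93%), NanogBiD (5.92% against 5.25%), Nr5a2 (8.75% against 8.91%) and Nr5a2BiD (1.12% against 0.994%). Neighbouring regions of the set were 35908 bp apart at the median. The densest run held 7 within 100 kb on chromosome 1, of which 6 had Cxcr4, a chemokine receptor gene, as the nearest start.

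At least 1 region was nearest to 8209 of 21951 protein-coding genes (37.4%). Most of these genes had few: 4195 had a single one and 167 had 10 or more. The genes with the most of them had many other Sox2BiD peaks as well. Naaladl2 had 25 of 88 Sox2BiD peaks, 28.4% against 16.03% over all peaks, and 15 regions of the set lay inside the gene. The teneurins, large adhesion proteins that guide the wiring of neurons, had 24 of 125 peaks for Tenm3, 24 of 123 for Tenm4 and 18 of 87 for Tenm2. The protocadherin Pcdh7 had 23, of which 13 held SOX, the most among the 20 leading genes, and the phosphodiesterase Pde4d also had 23. Auts2, linked to neural development, and the splicing factor gene Celf2 had 22 each. The transcription factor genes Zfhx3, Klf12 and Bnc2 had 21, 20 and 20. Bnc2, a zinc finger gene active in mesenchyme, had the highest share among the 20, 20 of 69 peaks or 28.99%, whereas Flrt2 had 18 of 132 or 13.6%. Inhba, which encodes an activin subunit, had 21 regions, none within the gene itself. The others were Pik3c3 with 21, Nrg1 and Adgrl3 with 20 each, Epha7, Lsamp and Diaph2 with 19 each, and Magi1 with 18. Nrg1, Adgrl3, Epha7 and Lsamp encode signalling and adhesion proteins of neurons.

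**Figure D5:**
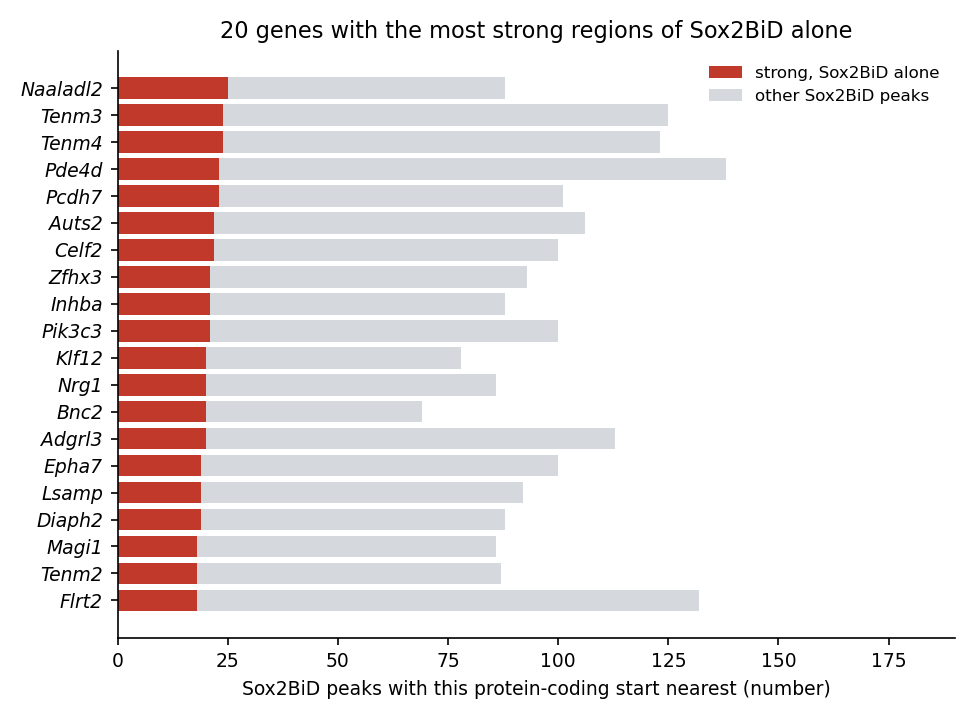
Number of Sox2BiD peaks (horizontal axis) nearest to the start of each of the 20 genes with the most strong regions of Sox2BiD alone (red), with all other Sox2BiD peaks in grey. Red bars run from 18 to 25 while the totals run from 69 for Bnc2 to 138 for Pde4d.

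Gene groups were described by lists, of which 11 of 12 had more genes with a region than the 37.4% of all protein-coding genes. Since genes differ in how many Sox2BiD peaks they have, the share of each list's Sox2BiD peaks that were strong and alone is given as well. These shares carry no intervals, and differences between lists were not tested. In the Sox family 11 of 20 genes had at least 1 region, led by Sox5 with 16 of 78 peaks and Sox9 with 12 of 61, both regulators of cartilage, and by Sox4 and Sox11 with 8 each. Their 60 regions were 16.8% of the family's Sox2BiD peaks, close to the 16.03% of all peaks. Sox2 itself had 2 of 17 peaks. The POU family had 9 of 15 genes and 25 of 128 peaks.

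Of the neural transcription factors, 27 of 47 had a region and 113 of 632 peaks (17.9%) were strong and alone. Id4, an inhibitor of bHLH factors, had 16 of 46, Nfib 12 of 74, and Bcl11a and Tcf4 had 10 each. Genes of synaptic adhesion and axon guidance had the most genes with a region, 40 of 44, but their 317 regions were 16.2% of 1951 peaks, and 412 regions belonged to both Sox2 libraries. Nrg1 and Epha7, given above, were in this list, as were Ptprd and Efna5 with 16 each. The transcription factors of lens, inner ear and foregut, where Sox2 acts in the embryo, had 10 of 18 genes and 32 of 239 peaks (13.4%), led by Gata3 and Eya1 with 6 each.

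Pluripotency genes had regions at 16 of 33 genes and 48 of 246 peaks (19.5%). Tbx3 and Klf4 had 7 each, out of 21 and 44 peaks, and Sall1 and Klf5 had 6 each. Nanog had 4 Sox2BiD peaks and Esrrb 1, none of them in the set. The list of helper factors and targets of NanogBiD that the study named had 5 of 8 genes and 16 of 88 peaks, with Klf4 at 7, Olig3 at 3, and Foxb1, Sall4 and Sox2 at 2 each. The study picked these genes from other data of its own, made with NanogBiD and Oct4, and tested some of them in reprogramming.

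In the mesenchymal transcription factors 19 of 27 genes had a region, 79 of 525 peaks (15.0%), led by Zeb2 with 14 of 87, Runx2 with 10 of 50, Tbx18 with 7 and Zeb1 with 6. Fibroblast matrix and cytoskeleton genes had 14 of 28 genes and the lowest share of peaks, 85 of 645 (13.2%). Cdh11 and Cdh2, cadherins of mesenchymal cells, had 18 and 17, and Dcn and Tnc had 8 each, out of 38 and 61 peaks. Fn1 had none among its 29 peaks and Col1a1 none among 7. Epithelial genes had 10 of 20 genes and 12 of 60 peaks, the highest share of the 12 lists (20%) from the fewest peaks, with 2 each at Epcam and Ocln and 1 at Cdh1. FGF and Notch signalling had 23 of 36 genes and 79 of 470 peaks (16.8%). The Notch ligand gene Jag1 had 8, and Fgf13, Fgf14, Fgf9 and Fgfr2 had 6 each. Subunits of the BAF complex itself were the only list below the share of all genes, with 9 of 26 genes (34.6%) and 33 of 221 peaks (14.9%). Arid1b had 8, Smarca2 and Ss18, the source of BiD, had 7 each, and Arid2 had 3.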

How the data were processed

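CUT&Tag libraries were made by the authors with a pA(G)-Tn5 kit. Reads were trimmed (Trim Galore 0.6.4), aligned to mm10 (Bowtie2 2.4.5), filtered (SAMtools 1.16.1) for mapping quality of at least 30, and used to call peaks per library (MACS 1.4.2, no model, shift size 25 bp, 1 tag kept per position, no control named). The deposited peak lists give a score, 10 × −log10 p, of at least 50, and the deposited summit lists give the signal, tags at the summit. No Tn5 offset is named in the methods, so summits may be off by a few bases. Depth is not in these files. Peaks were merged at 1 bp overlap. Members, motifs and gene lists were chosen with earlier results of these data known. Motifs were counted within 50 bp of summits in RefSeq GRCm38.p6, which has the chromosome names and lengths of mm10, and flanks lay 500 bp away. Genes and starts came from GENCODE M21. Share intervals are Clopper-Pearson (SciPy 1.17.1), ratios use log-scale count errors and differences a Wald interval. On simulated windows with planted SOX words the share was checked, but the ratio and difference intervals were not. Genes named were the nearest to the 10 strongest regions, the 20 with the most regions and up to 4 per list, or more at a tie. Nanog, Esrrb, Fn1, Col1a1 and Sox2 were added after their values were seen. Values of some genes that this rule names are not reported here. The 10 most enriched 8-base words were named. Python 3.11.15, NumPy 2.4.6, pandas 2.3.3 and matplotlib 3.10.9 were used.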

Additional observations from a re-analysis of the deposited data

How the results depend on the processing

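The SOX and AP-1 enrichments stayed above 1, the SOX log2 ratio positive and the AP-1 log2 ratio negative under each alternative run for them. The log2 ratios were not run without regions near another peak. With flanks 1000 bp away the interval of the AP-1 log2 ratio, -0.11 (-0.31 to 0.08), included 0. Keeping scores from 75 gave a SOX share of 28.7%, and from 150 gave 11130 regions and 31.3%. Letting native Sox2 alone decide which regions count, with the other 3 factors ignored, gave 37201 regions, a SOX share of 25.1%, a SOX enrichment of 5.55 and a promoter share of 19.4%. Without regions within 1000 bp of another peak the promoter share was 10.2%. In windows of 25 bp to each side the SOX share was 15.0% and the AP-1 log2 ratio -0.50; in windows of 100 bp the SOX share was 43.7%, and the SOX and AP-1 enrichments were 4.54 and 4.11. Flanks 1000 bp away gave a SOX enrichment of 6.41. The word CCATTGTT gave a SOX share of 4.97%, an enrichment of 10.4 and a log2 ratio of 0.47. The wider set of words, added after seeing the data, gave 73.5%, 4.01 and 0.17. Promoters of 500 bp and 5000 bp gave 3.12% and 25.03%, and counting every start within 100 kb gave 16693 genes. No paired analysis was possible because each factor had 1 library, and for the same reason no library could be left out. Depth is not in these files, so its part in the counts of regions held by a single library was not tested.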
